A study of Mus musculus with 2 samples.

Results

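Oligodendrocytes of mature type, the cells that wrap axons of the brain in myelin, were picked out of single-cell RNA sequencing of mice that carried the human E4 or the human E3 allele of APOE in place of mouse Apoe. The choice was made from measured counts. A barcode (the tag of 1 droplet) was kept with 1500 to 50000 UMIs (unique molecular identifiers, each standing for 1 captured transcript), at most 30% of them from mitochondrially encoded genes, and at least 5 UMIs in all of the myelin genes Mog, Mag and Cldn11. It also had to hold fewer than 5 UMIs of the microglial genes C1qa, C1qb and C1qc, fewer than 3 of the endothelial gene Cldn5, fewer than 3 of the fibroblast genes Dcn and Col1a1, fewer than 5 of the astrocyte genes Aqp4 and Gja1, and fewer than 2 of Pdgfra, which marks oligodendrocyte precursors. This left 855 of 13802 barcodes in the E4 library and 750 of 11485 in the E3 library, 1605 of 25287 in all. Both groups were homozygous knock-in females aged 11 to 12 months whose human allele was driven by the mouse Apoe promoter. Right hemispheres of 3 mice per genotype, without brainstem and cerebellum, were pooled, digested with enzymes at a raised temperature, cleared of debris and made into 1 library. With 1 library per genotype there was no replicate and no test of genotype was possible. All intervals are exact 95% intervals that cover counting error only, and mice within a pool could not be told apart. Overlap of 2 such intervals does not show that the values are alike.

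Oligodendrocytes arise from Pdgfra-positive precursors, pass through a short newly formed stage marked by Bmp4, Gpr17, Tnr and Enpp6, and then switch on the proteins of compact myelin such as Mbp. In the adult mouse brain the mature cells are not uniform, and Klk6, Hopx and S100b on one side and Opalin, Ptgds and Il33 on the other have been used to tell their states apart. Myelin is rich in cholesterol and sphingolipids, and ApoE is a lipid carrier that in the brain is made largely by astrocytes.

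The 855 E4 oligodendrocytes held 1505 to 26178 UMIs with a median of 6086, and the 750 E3 oligodendrocytes held 1561 to 31531 with a median of 6110. Their summed depth was 5704562 UMIs in the E4 library and 5108638 in the E3 library, of totals of 71625170 and 56415229. Median shares of mitochondrially encoded UMIs were 6.82% in E4 and 6.31% in E3 cells. The libraries shared 46 barcodes, none of them an oligodendrocyte. Apoe cannot check the labels, because the counted gene is the mouse one and both alleles are human. It was listed at 31.4 CPM (UMIs of a gene summed over cells, per 1000000 UMIs) in E4 and 30.3 CPM in E3 oligodendrocytes, against 264 and 211 CPM in barcodes chosen by the astrocyte genes. Of the barcodes within the limits on UMIs and mitochondrial share, oligodendrocytes made up 7.48% (7.01 to 7.98%) in the E4 library and 7.99% (7.45 to 8.55%) in the E3 library, and these intervals overlap.

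Near the threshold the selection was sparse. Only 3 E4 and 7 E3 oligodendrocytes had 5 or 6 UMIs of Mog, Mag and Cldn11, whereas the median was 30 in E4 and 29 in E3. A further 11 E4 and 5 E3 barcodes that met every other limit had 3 or 4. The limits on other cell types removed 183 E4 and 118 E3 barcodes that had enough myelin UMIs, mostly through the microglial genes (84 and 47) and the astrocyte genes (84 and 59).

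Myelin genes that the rule did not use were at higher levels in these cells than in barcodes chosen by genes of other cell types. Mal, a proteolipid of myelin, stood at 6620 CPM in E4 and 6959 CPM in E3 oligodendrocytes, against 14.4 CPM in E4 barcodes chosen by the astrocyte genes and 11.2 CPM in E4 barcodes chosen by the microglial genes. Barcodes chosen by the endothelial gene held more Mal, at 722 CPM in E4 and 662 CPM in E3. Cnp, which keeps cytoplasmic channels in myelin open, stood at 3418 CPM in E4 and 3417 CPM in E3 oligodendrocytes. Its level was 145 CPM in the E4 astrocyte barcodes and 49.6 CPM in the E4 microglial barcodes. Mbp, the protein that compacts the cytoplasmic face of myelin, showed 4417 CPM in E4 and 4527 CPM in E3 oligodendrocytes. The barcodes of other cell types had, by the same limits, fewer than 5 UMIs of Mog, Mag and Cldn11, so their low myelin levels are partly set by the choice. Genes outside the rule thus matched the name given to these cells, apart from a few cells with at least 2 UMIs of the newly formed genes Bmp4, Gpr17 and Tnr, 8 with and 8 without an Opalin UMI in E4, and 7 with and 11 without in E3.

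**Figure D1:**
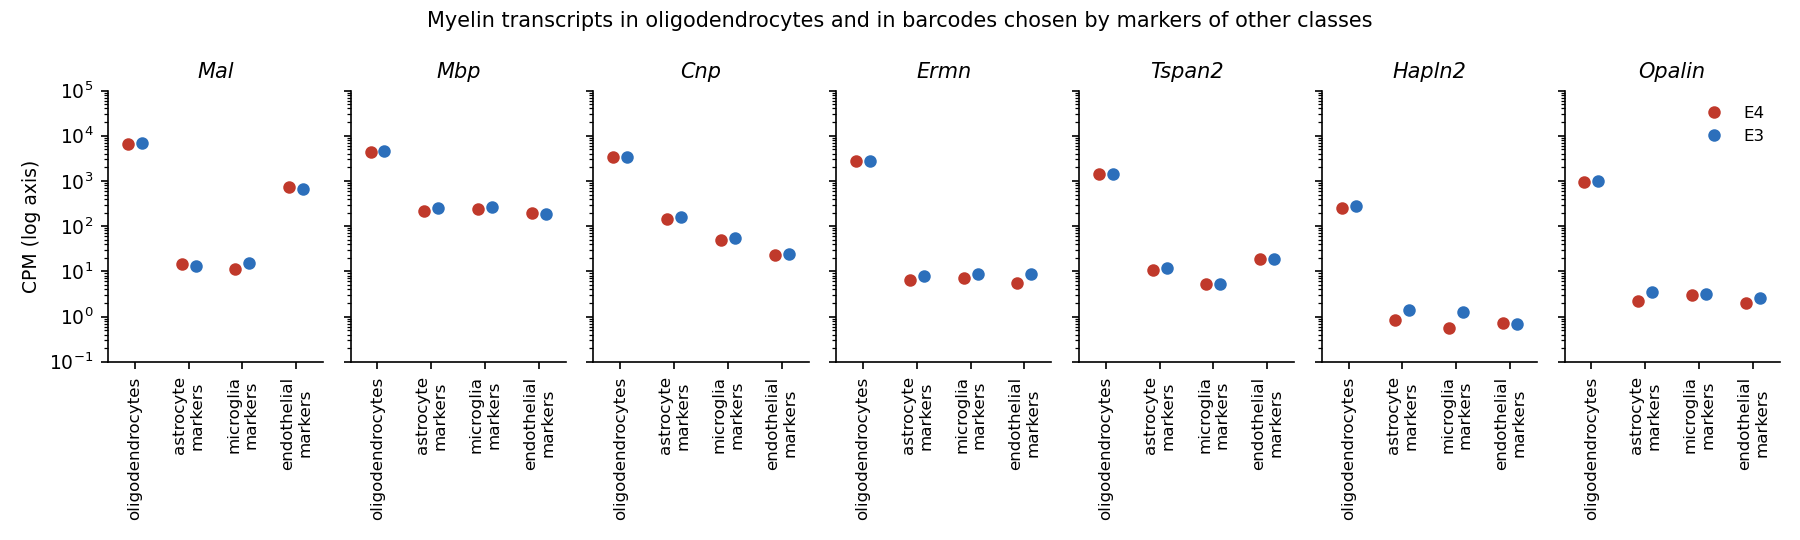
Levels (CPM, log axis) of 7 myelin genes in oligodendrocytes and in barcodes chosen by astrocyte, microglial or endothelial genes, with E4 and E3 libraries as separate points. Mal stood at 6620 CPM in E4 and 6959 CPM in E3 oligodendrocytes and at 14.4 CPM in E4 astrocyte barcodes, but at 722 CPM in E4 endothelial barcodes.

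Genes of other cell types were low but not at 0. The rule limited some microglial, astrocyte and endothelial genes in oligodendrocytes, so low sums for these cell types are partly set by the choice. Microglial and astrocyte barcodes were chosen by genes of their own type, so the contrast with them is partly set too. Neuronal genes had no limit in the rule. The summed level of 12 microglial genes was 358 CPM in E4 and 336 CPM in E3 oligodendrocytes, against 39896 and 38982 CPM in the microglial barcodes. For 12 astrocyte genes the sums were 815 and 840 CPM in E4 and E3 oligodendrocytes, against 27606 and 26514 CPM in the astrocyte barcodes. Endothelial genes summed to 137 CPM in E4 and 111 CPM in E3 oligodendrocytes, and neuronal genes to 172 and 149 CPM. Haemoglobin genes differed more, with at least 1 UMI in 134 of 855 E4 and 360 of 750 E3 cells. A few barcodes held many UMIs of a second cell type, 14 in E4 and 10 in E3 by limits on haemoglobin, Ttr, mural, microglial and ependymal genes, and results that rest on them are given with and without them.

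Opalin, an oligodendrocyte membrane glycoprotein of unsettled function, divided the cells. At least 1 Opalin UMI was found in 749 of 855 E4 cells, 87.6% (85.2 to 89.7%), and in 631 of 750 E3 cells, 84.1% (81.3 to 86.7%), and these intervals overlap. In the astrocyte barcodes, which should lack the gene, 1.07% of E4 and 1.83% of E3 barcodes had an Opalin UMI, and in the microglial barcodes 1.40% and 1.29%. The median depth of the astrocyte barcodes was 4243.5 UMIs in E4 and 4403 in E3, and that of the microglial barcodes 4293.5 and 3755, so all cells were also thinned to 1500 UMIs each. After thinning, 68.5% of E4 and 66.1% of E3 oligodendrocytes still had an Opalin UMI, against 0.335% and 0.540% of astrocyte barcodes. Positive cells held a median of 6 Opalin UMIs in both libraries, with a maximum of 71 in E4 and 112 in E3.

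Cells without Opalin were not the shallow ones. Opalin-positive cells had a median of 5890 UMIs in E4 and 5884 in E3, against 8943.5 and 8248 in Opalin-0 cells. By depth, Opalin was present in 93.8% of E4 and 88.5% of E3 cells with 1500 to 4499 UMIs, in 95.7% and 96.0% of those with 4500 to 5999, in 93.7% and 85.5% of those with 6000 to 7999, and in 60.3% and 64.6% of those with at least 8000. Mitochondrially encoded genes made up a median of 6.98% of UMIs in E4 and 6.50% in E3 Opalin-positive cells, against 5.37% and 4.82% in Opalin-0 cells. The part of depth in the split was not tested, and values thinned to 1500 UMIs stand beside the leading genes.

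Most Opalin-0 cells carried Klk6, a secreted serine protease of the kallikrein family. At least 2 Klk6 UMIs were found in 71 of 106 E4 Opalin-0 cells, 67.0% (57.2 to 75.8%), and in 80 of 119 E3 Opalin-0 cells, 67.2% (58.0 to 75.6%). Among Opalin-positive cells the shares were 2.27% in E4 (17 cells) and 3.80% in E3 (24 cells). In 7 E4 and 11 E3 further Opalin-0 cells, 2 or more UMIs of Bmp4, Gpr17 and Tnr were present with fewer than 2 of Klk6, and 28 cells in each library had neither. This division of Opalin-0 cells was chosen after the data were seen and serves as a description.

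**Figure D2:**
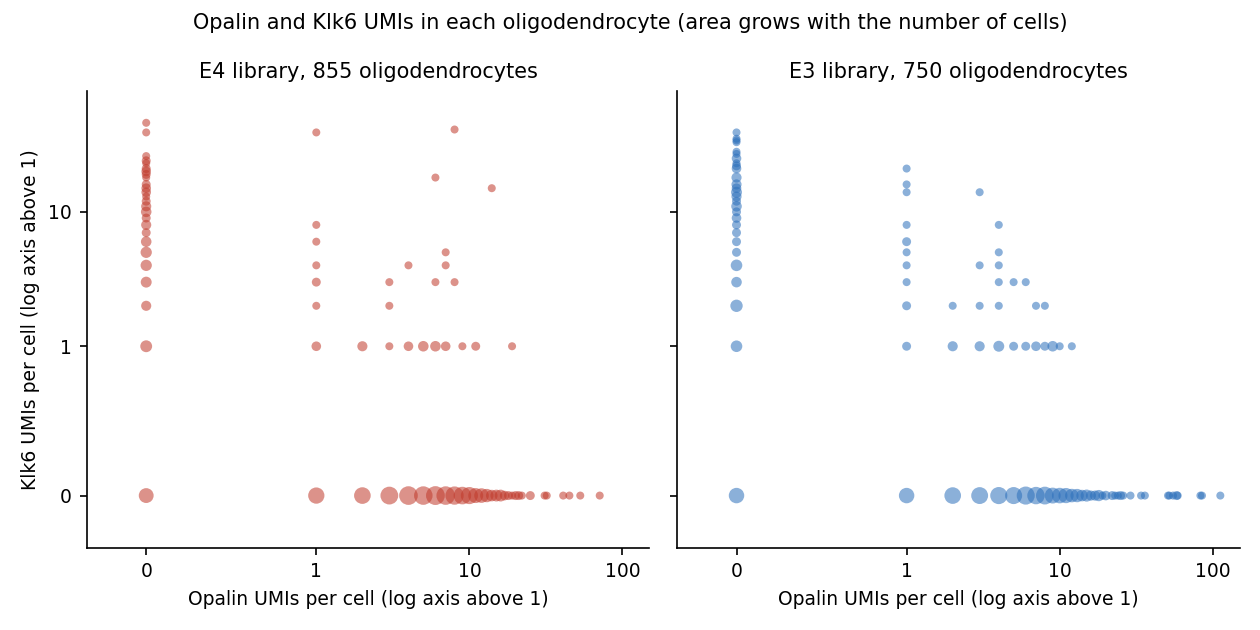
Opalin UMIs (x axis) and Klk6 UMIs (y axis) per oligodendrocyte, both axes logarithmic above 1, in E4 (left) and E3 (right), with the area of a point growing with the number of cells. Most cells lie along one axis or the other, and 5.26% of E4 and 7.47% of E3 cells held both genes.

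Cells with both Opalin and Klk6 were a small share of all oligodendrocytes, a share that cannot exceed that of Klk6. Both genes were found in 5.26% of E4 and 7.47% of E3 oligodendrocytes, and after thinning to 1500 UMIs in 0.702% and 1.20%. Klk6 alone or with Opalin was found in 14.6% and 19.2% before thinning, and in 7.95% and 10.4% after it. Of cells with a Klk6 UMI, 45 of 125 in E4 and 56 of 144 in E3 also held Opalin. After thinning these were 6 of 68 and 9 of 78. Opalin-0 cells with Klk6 held a median of 9 Klk6 UMIs in E4 and 11 in E3. Klk6 was present in 0.122% of E4 and 0.324% of E3 astrocyte barcodes. Over all oligodendrocytes, at least 2 Klk6 UMIs were found in 10.3% (8.34 to 12.5%) in E4 and 13.9% (11.5 to 16.5%) in E3, intervals that overlap.

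Levels of all other genes were then compared between Opalin-positive and Opalin-0 cells within each library, as log2 of the ratio of CPM computed without Opalin. Since the same cells give the split and the levels, this is a description with no test. Of 9498 genes with at least 50 UMIs, 813 (8.56%) were at least 1.5-fold higher and 998 (10.5%) at least 1.5-fold lower in Opalin-positive cells by the mean of both libraries with 1 direction in both. Over all genes the median log2 ratio was −0.04, with 45.0% of genes higher and 55.0% lower in Opalin-positive cells. The balance of the calls turned over without the Opalin-0 cells that carry Bmp4, Gpr17 or Tnr, with 1021 higher and 816 lower. Without each gene's highest cell in each group, 1181 were higher and 733 lower. That step takes a larger share of UMIs from the smaller Opalin-0 groups, which raises the ratios. The median log2 ratio over all genes moved to 0.05 with it, so that turnover is partly set by group size.

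Ptgds and Il33, both among the 10 genes with the largest excess in Opalin-positive cells, were present in most of these cells. Ptgds, at chr2:25466709-25470046, encodes prostaglandin D synthase, which also carries small lipids. It stood at 11829 CPM in Opalin-positive and 628 CPM in Opalin-0 cells of the E4 library, a log2 ratio of 4.24 (4.12 to 4.35), and at 12210 and 254 CPM in E3, a log2 ratio of 5.59 (5.41 to 5.77). Il33, a nuclear cytokine that in the brain is made by oligodendrocytes and astrocytes, stood at 1012 CPM in Opalin-positive and 80.5 CPM in Opalin-0 cells of E4, a log2 ratio of 3.65 (3.33 to 4.0). In E3 its levels were 826 and 40.3 CPM, a log2 ratio of 4.36 (3.92 to 4.84). Il33 was present in 92.8% of E4 and 88.1% of E3 Opalin-positive cells, against 30.2% and 17.6% of Opalin-0 cells. After thinning to 1500 UMIs the log2 ratios were 3.59 in E4 and 4.89 in E3 for Ptgds, and 3.41 and 3.79 for Il33.

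The other leading genes on this side were sparse. Gm48678, a gene model without a known product, had 326 UMIs in Opalin-positive and 3 in Opalin-0 cells of E4, and 180 and 2 in E3, log2 ratios of 4.45 (2.89 to 6.74) and 4.49 (2.61 to 7.54), with a mean of 1.70 after thinning. Wfdc18, a secreted protein with a whey acidic protein domain, had 270 and 3 UMIs in E4, and 290 and 3 in E3. Adamts1, a matrix protease, had 184 and 1 UMIs in E4, and 115 and 4 in E3 (a mean log2 ratio of 4.03, and 1.04 after thinning), and the gene model Gm42372 had 165 and 6 in E4, and 140 and 1 in E3. These genes were seen almost solely in Opalin-positive cells of both libraries, though their intervals are wide. With so few Opalin-0 UMIs, a group can be left with none after thinning. The limit of 3 counts then stands in and the ratio is a lower bound. The smaller values after thinning therefore do not measure a drop with depth. The haemoglobin genes Hba-a1, Hba-a2, Hbb-bt and Hbb-bs had the 4 largest ratios, with most of their UMIs in 1 Opalin-positive cell of each library. For Hbb-bs that cell held 3832 of 3925 UMIs in E4 and 4052 of 4273 in E3. Without each gene's highest cells the log2 ratios, averaged over both libraries, were 0.39 for Hbb-bs, 1.88 for Hba-a2 and 2.40 for Hba-a1, and without mixed barcodes 0.17, 0.94 and 1.39, with 0.84 for Hbb-bt.

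Klk6, at chr7:43824499-43832030, led the genes of the Opalin-0 cells that were present in many cells. Its level was 40.3 CPM in Opalin-positive and 817 CPM in Opalin-0 cells of E4, a log2 ratio of −4.34 (−4.58 to −4.11), and 42.3 and 955 CPM in E3, a log2 ratio of −4.50 (−4.74 to −4.26). It was present in 6.01% of E4 and 8.87% of E3 Opalin-positive cells, against 75.5% and 73.9% of Opalin-0 cells. Nkx2-9, a homeobox factor, followed with 8.43 CPM in Opalin-positive and 152 CPM in Opalin-0 cells of E4, and with 10.3 and 194 CPM in E3. S100b, a calcium-binding protein shared with astrocytes, stood at 185 CPM in Opalin-positive and 1981 CPM in Opalin-0 cells of E4, and at 246 and 2696 CPM in E3, log2 ratios of −3.42 and −3.45. Hopx, a homeodomain protein that does not itself bind DNA, stood at 54.0 and 501 CPM in E4, and at 49.4 and 593 CPM in E3, log2 ratios of −3.21 and −3.58. Uchl1, a deubiquitinase abundant in neurons, and Cbs, the enzyme that joins homocysteine and serine, showed log2 ratios of −3.34 and −3.06 in E4 and of −3.44 and −3.32 in E3. Each of these 6 genes kept its direction after thinning, with log2 ratios for Klk6 of −5.13 in E4 and −4.98 in E3 and for Hopx of −3.29 and −3.42. Of 5 neuronal genes compared, 4 were higher in Opalin-positive cells by the mean of both libraries, but only 1 was higher in both. Their median log2 ratio was 1.14, but −0.38 after thinning and −0.45 with every cell weighted alike. The 12 neuronal genes listed summed to 326 CPM in E4 and 233 CPM in E3 Opalin-0 cells with Klk6. Their sums were 152 and 134 CPM in Opalin-positive cells, and 33.4 and 9.66 CPM in Opalin-0 cells with Bmp4, Gpr17 or Tnr. Tubb3, a neuronal tubulin, alone was lower in both libraries, at 94.5 CPM in Opalin-positive and 204 CPM in Opalin-0 cells of E4, and at 71.7 and 194 CPM in E3, and its part in the result was not tested. Mgp, a matrix protein of vessels and meninges, also had a low ratio, with 28 UMIs in Opalin-positive and 471 in Opalin-0 cells of E4 and 150 and 495 in E3, but 406 and 379 of the Opalin-0 UMIs lay in 1 cell of each library, and without the highest cells the log2 ratios were −3.58 and −2.20. The mean ratio of Mgp turned to 1.42 with at least 10 marker UMIs and to 0.99 in cells without UMIs of other cell types' genes.

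**Figure D3:**
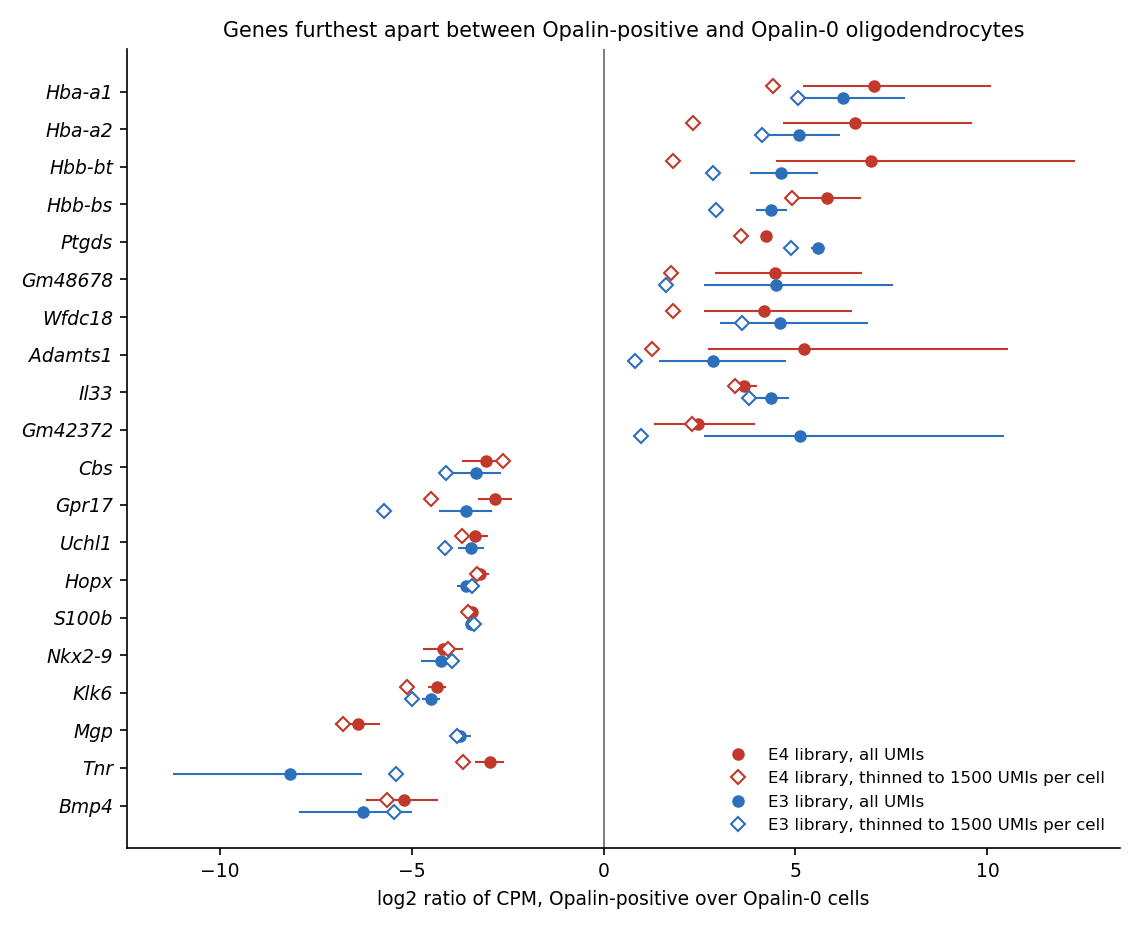
Log2 ratio of Opalin-positive over Opalin-0 cells for the 20 genes of the largest ratios, filled points with 95% counting intervals for E4 (red) and E3 (blue), open diamonds after thinning each cell to 1500 UMIs. Ptgds lies at 4.24 in E4 and 5.59 in E3, and Klk6 at −4.34 and −4.50.

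Promoter sequences of the gene that made the split and of leading genes on either side are printed because their levels follow the split. They are the 250 bases before to 50 bases after a start site as given by RefSeq for GRCm38.p6, written 5′ to 3′ on the gene's strand. Capitals mark matches on either strand to 3 motifs linked to oligodendrocyte factors, ACAAAG for SOX proteins, the E-box CAGCTG read by Olig factors, and CTGGCAC for Myrf, which occur in 18.7%, 16.3% and 5.01% of 32851 promoters of this length. The promoters lie at chr19:41077064-41077363 on the minus strand for Opalin, at chr2:25469700-25469999 on the minus strand for Ptgds, at chr19:29924863-29925162 on the plus strand for Il33, at chr7:43824294-43824593 on the plus strand for Klk6 and at chr5:77115074-77115373 on the minus strand for Hopx, the last 3 genes having 2 listed start sites each of which 1 is shown.
Opalin: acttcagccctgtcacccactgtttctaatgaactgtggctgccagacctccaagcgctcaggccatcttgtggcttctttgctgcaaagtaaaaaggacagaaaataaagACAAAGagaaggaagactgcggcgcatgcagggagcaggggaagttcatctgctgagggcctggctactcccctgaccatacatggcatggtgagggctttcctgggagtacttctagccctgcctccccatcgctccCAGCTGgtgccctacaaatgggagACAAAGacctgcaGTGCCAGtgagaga
Ptgds: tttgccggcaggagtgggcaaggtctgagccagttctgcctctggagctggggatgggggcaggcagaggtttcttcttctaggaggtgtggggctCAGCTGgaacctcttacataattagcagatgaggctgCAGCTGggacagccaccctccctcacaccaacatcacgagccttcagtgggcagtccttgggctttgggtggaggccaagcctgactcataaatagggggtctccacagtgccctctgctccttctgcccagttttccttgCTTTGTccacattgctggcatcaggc
Il33: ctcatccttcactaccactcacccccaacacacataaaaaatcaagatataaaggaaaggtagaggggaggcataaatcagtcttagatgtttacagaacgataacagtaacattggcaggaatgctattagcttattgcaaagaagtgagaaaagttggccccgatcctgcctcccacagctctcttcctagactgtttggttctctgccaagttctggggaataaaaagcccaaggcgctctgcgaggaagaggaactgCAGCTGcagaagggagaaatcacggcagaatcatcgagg
Klk6: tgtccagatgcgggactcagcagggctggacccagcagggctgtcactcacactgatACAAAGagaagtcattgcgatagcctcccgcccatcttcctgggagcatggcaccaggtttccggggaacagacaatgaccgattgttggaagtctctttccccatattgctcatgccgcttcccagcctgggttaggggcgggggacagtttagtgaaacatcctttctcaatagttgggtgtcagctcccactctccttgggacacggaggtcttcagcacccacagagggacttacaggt
Hopx: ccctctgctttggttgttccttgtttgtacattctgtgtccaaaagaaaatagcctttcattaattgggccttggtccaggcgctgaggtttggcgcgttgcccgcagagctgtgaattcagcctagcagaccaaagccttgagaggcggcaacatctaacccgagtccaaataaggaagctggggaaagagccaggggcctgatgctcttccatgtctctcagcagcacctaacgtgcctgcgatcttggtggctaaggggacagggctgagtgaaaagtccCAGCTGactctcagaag
The Opalin promoter held 2 SOX matches, 1 E-box and 1 Myrf match. That of Ptgds held 1 SOX match and 2 E-boxes, those of Il33 and Hopx held 1 E-box each, and that of Klk6 held 1 SOX match. The other start sites of Il33, Klk6 and Hopx, and the promoter of S100b, held none of the 3 motifs. A match is a run of letters and no evidence of binding.

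Among myelin proteins the split was uneven. Of 19 genes compared, the 3 of the rule included, 13 were higher and 6 lower in Opalin-positive cells by the mean of both libraries, with a median log2 ratio of 0.14. Tspan2, a tetraspanin of myelin, stood at 1590 CPM in Opalin-positive and 518 CPM in Opalin-0 cells of E4, and at 1644 and 475 CPM in E3, log2 ratios of 1.62 and 1.79. Mal stood at 7308 and 3247 CPM in E4, and at 7868 and 3344 CPM in E3, log2 ratios of 1.17 and 1.23. Hapln2, which links hyaluronan at nodes of Ranvier, went the other way, at 217 CPM in Opalin-positive and 434 CPM in Opalin-0 cells of E4, and at 220 and 501 CPM in E3. Mbp (log2 ratios of 0.04 in E4 and 0.02 in E3) and Cnp (0.13 and 0.23) were close to even.

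Genes used to tell mature oligodendrocyte states apart were mostly on one side or the other. Of 27, 14 were higher and 13 lower in Opalin-positive cells. By at least 1.5-fold, 10 were higher and 13 lower, against 8.56% and 10.5% of all genes. Besides Ptgds and Il33, the higher ones included Qdpr, which regenerates tetrahydrobiopterin, with log2 ratios of 1.08 in E4 and 1.36 in E3, and Jph4, a junctophilin, with 1.5 and 1.90. The lower ones included Anxa5, an annexin, at 64.5 CPM in Opalin-positive and 464 CPM in Opalin-0 cells of E4, and at 75.4 and 592 CPM in E3. Apod, a lipid-binding apolipoprotein, stood at 3098 and 6011 CPM in E4, and at 3096 and 6060 CPM in E3. Trf, which encodes the iron carrier transferrin, showed log2 ratios of −0.65 in E4 and −0.66 in E3, and Fth1, the ferritin heavy chain, of −0.36 and −0.47. These lists were assembled with earlier results of these data known and are no independent evidence of a direction.

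Cholesterol synthesis genes were lower in Opalin-positive cells for 20 of 22 genes, against 55.0% of all genes, and 17 were lower in both libraries. Their median log2 ratio was −0.43, and 9 were at least 1.5-fold lower, against 10.5% of all genes. Hmgcs1, which makes the precursor of mevalonate, stood at 219 CPM in Opalin-positive and 391 CPM in Opalin-0 cells of E4, and at 274 and 520 CPM in E3. Sqle, the squalene epoxidase, showed log2 ratios of −1.16 in E4 and −1.0 in E3, and Idi1, the isopentenyl diphosphate isomerase, of −0.96 and −0.89. In contrast, 27 genes of sphingolipid and fatty acid synthesis were split 14 to 13 with a median of 0.03. Within them Pex5l stood at log2 ratios of 0.97 in E4 and 0.96 in E3, and Far1, which makes fatty alcohols for ether lipids, at −0.86 and −0.93. Plin3, a coat protein of lipid droplets, was lower in Opalin-positive cells, at 136 against 531 CPM in E4 and 134 against 550 CPM in E3.

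Set against 55.0% lower over all genes, cytoskeletal genes of cell processes were lower in Opalin-positive cells for 21 of 29 genes with a median log2 ratio of −0.27. By at least 1.5-fold, 8 were lower and 3 higher, against 10.5% and 8.56% of all genes. Anln, a scaffold of myelin septins, had log2 ratios of −1.23 in E4 and −1.06 in E3, whereas Sept4, itself a septin, had 0.70 and 0.92. Mapt, which encodes the microtubule protein tau, had 0.73 and 0.96. Receptors and channels leaned the other way, with 17 of 26 higher, against 45.0% of all genes, and a median of 0.36. Among them Kcna1, a voltage-gated potassium channel, had log2 ratios of 0.78 and 1.17, Sema6a, a semaphorin, 1.15 and 1.05, and Gpr37, a receptor that in mice restrains oligodendrocyte differentiation, 0.67 and 0.57. Among immediate-early and stress genes 14 of 22 stood higher in Opalin-positive cells against the same 45.0%, with a median of 0.33, and of 0.10 after thinning. All 13 mitochondrially encoded genes were higher, against 45.0% of all genes, with a median of 0.28. Nuclear genes of oxidative phosphorylation had a median of −0.05 over 79 genes and ribosomal protein genes 0.04 over 83. For glycolysis and lactate, 10 of 25 genes were higher and 15 lower, a split near that of all genes, with Gapdh at −0.75 in E4 and −0.72 in E3 and Ldhb, a lactate dehydrogenase subunit, at −1.44 and −1.79.

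Opalin-0 cells with Bmp4, Gpr17 or Tnr and fewer than 2 Klk6 UMIs were few, 7 in E4 and 11 in E3, beside 8 E4 and 7 E3 cells that were Opalin-positive with these genes. Bmp4, Gpr17 and Tnr chose them. Fyn, a kinase active at the onset of myelination, stood at 2657 CPM in these cells of E4 and 1797 CPM in E3, against 43.4 and 39.3 CPM in Opalin-0 cells with Klk6. Tcf7l2, a transcription factor of the newly formed stage, stood at 1201 CPM in E4 and 1111 CPM in E3, against 14.5 and 21 CPM. Enpp6, a choline phosphodiesterase, stood at 1568 and 1459 CPM, against 497 and 448 CPM. These cells were low in genes of mature myelin. Trf stood at 77.8 CPM in E4 and 106 CPM in E3, against 7616 and 7487 CPM in Opalin-0 cells with Klk6, and Apod at 133 and 58.0 CPM, against 6811 and 6948 CPM. Mal had no UMI in the 7 E4 cells, which allows up to 33.4 CPM, and stood at 126 CPM in E3. Cnp was still at 2702 CPM in E4 and 2396 CPM in E3, and the rule, which asks for Mog, Mag and Cldn11 only, therefore let in cells with genes of the newly formed stage. They held 87 of the 88 Bmp4 UMIs of Opalin-0 cells in E4 and 95 of 96 in E3, and 139 of 145 and 142 of 143 of the Tnr UMIs.

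**Figure D4:**
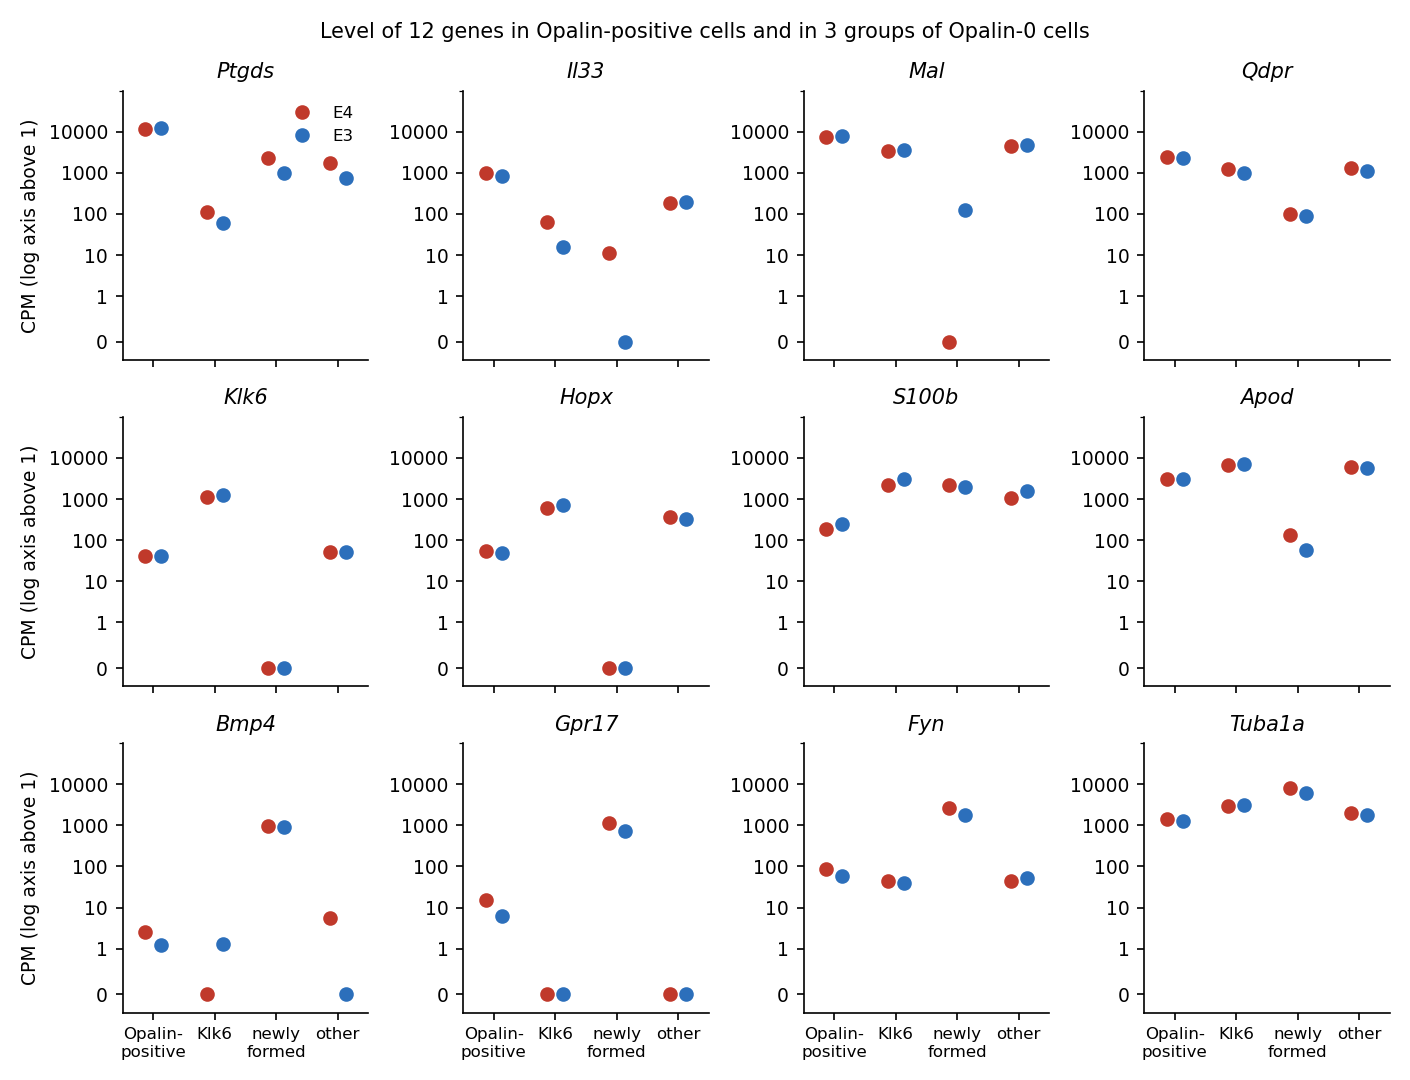
Levels (CPM) of 12 genes in Opalin-positive cells, in Opalin-0 cells with at least 2 Klk6 UMIs, in Opalin-0 cells with Bmp4, Gpr17 or Tnr, and in other Opalin-0 cells, for E4 and E3. Fyn stood at 2657 CPM in E4 and 1797 CPM in E3 in the third group, against 43.4 and 39.3 CPM in the second.

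E4 and E3 oligodendrocytes were next compared over all genes, as log2 of the ratio of summed CPM, E4 over E3. Of 9500 genes with at least 50 UMIs, 293 (3.08%) were at least 1.5-fold higher and 165 (1.74%) at least 1.5-fold lower in E4. The median log2 ratio was 0.04 and 57.8% of genes lay above 0. These figures describe 2 libraries and hold no replicate check.

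Myelin genes stood at like levels in both libraries. Of 20 genes, the 3 of the rule and Opalin included, 10 were higher and 10 lower in E4, none by 1.5-fold, with a median log2 ratio of −0.00. Cnp had a log2 ratio of 0.00 (−0.03 to 0.03), Ermn, a process protein of late differentiation, of −0.01 (−0.05 to 0.02) and Tspan2 of −0.00 (−0.05 to 0.05). The intervals for Mal (−0.07, −0.09 to −0.05) and Mbp (−0.04, −0.06 to −0.01) lay below 0. Axon contact and junction genes had a median of −0.03 over 14 genes, and Gjb1, the connexin of oligodendrocyte gap junctions, stood lower in E4 at 255 CPM against 321 CPM, a log2 ratio of −0.33 (−0.43 to −0.23). Sphingolipid and fatty acid genes had a median of 0.01 over 27 genes, with the galactolipid enzyme Ugt8a at −0.14 (−0.20 to −0.09).

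Cholesterol synthesis genes were lower in E4 for 19 of 22 genes, against 42.2% of all genes. None was 1.5-fold lower, and the median log2 ratio was −0.13 against 0.04 over all genes. Hmgcs1 stood at 248 CPM in E4 and 323 CPM in E3, a log2 ratio of −0.38 (−0.48 to −0.28). Idi1 stood at 102 and 137 CPM (−0.42, −0.59 to −0.26), Cyp51, the lanosterol demethylase, at 118 and 147 CPM (−0.32, −0.47 to −0.16), and Fdps, the farnesyl diphosphate synthase, at 135 and 167 CPM (−0.31, −0.45 to −0.16). Fdps had a log2 ratio of 0.04 after thinning to 1500 UMIs. For the same list the medians were −0.00 in astrocyte barcodes, 0.14 in microglial barcodes and 0.05 in endothelial barcodes, and the difference between cell types was not tested. Opalin-0 cells, which had higher levels of most of these genes, made up 106 of 855 E4 and 119 of 750 E3 cells. The list summed to 2279 CPM in E4 and 2564 CPM in E3 Opalin-0 cells with Klk6. Opalin-positive cells had sums of 1444 and 1630 CPM. The sums were 1345 and 1614 CPM in Opalin-0 cells with Bmp4, Gpr17 or Tnr, and 1577 and 2052 CPM in other Opalin-0 cells. Within Opalin-positive cells alone the log2 ratios were −0.32 for Hmgcs1 and −0.41 for Idi1.

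Lipid carriers other than Apoe differed little. Over 18 genes of lipid transport the median log2 ratio was 0.01, with Ptgds at 0.02 (0.00 to 0.04) and Apod at −0.04 (−0.07 to −0.01). Fabp5, a fatty acid binding protein, stood at 741 CPM in E4 and 906 CPM in E3, a log2 ratio of −0.29 (−0.35 to −0.23). Iron genes had a median of 0.00 over 9 genes.

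Genes of the mature states were not all alike between genotypes. Il33 stood at 855 CPM in E4 and 669 CPM in E3, a log2 ratio of 0.35 (0.29 to 0.42), and at 0.29 within Opalin-positive cells. In the astrocyte barcodes its log2 ratio was 0.04. Sgk1, a kinase induced by serum and glucocorticoids, stood at 401 CPM in E4 and 318 CPM in E3 (0.34, 0.24 to 0.43). On the other side, S100b stood at 486 CPM in E4 and 735 CPM in E3, a log2 ratio of −0.60 (−0.67 to −0.52). Its ratio was below 0 in each set of cells, at −0.41 in Opalin-positive cells and −0.44 in Opalin-0 cells. Klk6 stood at 171 and 224 CPM (−0.40, −0.52 to −0.27), but at −0.07 within Opalin-positive and −0.23 within Opalin-0 cells, beside shares of cells with at least 2 Klk6 UMIs of 10.3% in E4 and 13.9% in E3. Anxa5 stood at 131 CPM in E4 and 178 CPM in E3 (−0.44, −0.58 to −0.30). Over the list of 27 genes, 10 were higher and 17 lower in E4, with a median of −0.03. Genes of oligodendrocytes in disease models were higher for 7 and lower for 11 of 18 with a median of −0.04, among them C4b, a complement component with a near-identical copy, at 0.32 (−0.00 to 0.66). Of 8 interferon-response genes, 2 were higher and 6 lower with a median of −0.17.

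Among 22 immediate-early and stress genes, 20 stood higher in the E4 library, against 57.8% of all genes. Of the 22, 7 were at least 1.5-fold higher, against 3.08% of all genes. Their median log2 ratio was 0.42, and 0.24 after thinning. Hspa1a, a heat shock protein with a near-identical copy so that its count is uncertain, had 166 UMIs in E4 and 71 in E3, a log2 ratio of 1.07 (0.66 to 1.49). Btg2, an early-response gene that slows division, had 160 and 74 UMIs (0.95, 0.55 to 1.37). Junb, an AP-1 factor, stood at 60.6 CPM in E4 and 36.6 CPM in E3 (0.73, 0.47 to 0.99), and Egr1, an early-response factor, was present in 18.2% of E4 and 11.2% of E3 cells (0.55, 0.36 to 0.74). Other chaperones differed less, with Hsp90aa1 at 0.18 (0.15 to 0.22) and Hspa5, the chaperone of the endoplasmic reticulum, at −0.01 (−0.10 to 0.09). The list was higher in E4 in other cell types too, with medians of 0.14 in astrocyte, 0.28 in microglial and 0.15 in endothelial barcodes. Such genes respond to warm enzymatic digestion, each genotype was digested as 1 pool, and digestion and genotype cannot be told apart.

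Transcription factors of the lineage were higher in E4 for 13 of 17 genes, against 57.8% of all genes. Their median log2 ratio was 0.07, close to that of all genes. Olig1 stood at 0.07 (−0.00 to 0.15), Sox10 at −0.08 (−0.18 to 0.01), Olig2 at 0.12 (−0.06 to 0.29) and Nkx6-2 at −0.10 (−0.19 to −0.01), none of them far from even. Zbtb16, a zinc finger factor, was among the 10 genes of the largest ratios, with 497 UMIs in E4 and 243 in E3, a log2 ratio of 0.87 (0.65 to 1.10) that stood at 0.48 after thinning. It was present in 40.7% of E4 and 25.6% of E3 cells. Genes of newly formed oligodendrocytes had a median of 0.31 over 14 genes, which stood at 0.09 after thinning and at 0.07 with every cell weighted alike. Fyn had a log2 ratio of 0.40 and Gpr17, seen in 2.34% of E4 and 2.53% of E3 cells, one of 0.66.

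Receptors and channels were higher in E4 for 22 of 26 genes, against 57.8% of all genes. Their median log2 ratio was 0.10, against 0.12 in astrocyte and 0.17 in microglial barcodes. Kcna1 stood at 465 CPM in E4 and 374 CPM in E3 (0.31, 0.23 to 0.40), and Gpr37 at 601 and 508 CPM (0.24, 0.17 to 0.32). Lpar1, a receptor for lysophosphatidic acid, and Fgfr2 were near even at 0.06 (−0.02 to 0.15) and 0.04 (−0.06 to 0.14).

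Energy genes leaned by small amounts. Nuclear genes of oxidative phosphorylation were lower in E4 for 65 of 79 genes, against 42.2% of all genes. None was 1.5-fold lower, and the median log2 ratio was −0.09. Cox6c, a subunit of cytochrome oxidase, stood at 842 CPM in E4 and 962 CPM in E3 (−0.19, −0.25 to −0.13), and Cox4i1, another subunit, at 1005 and 1060 CPM (−0.08, −0.13 to −0.02). The list leaned the same way in other cell types, with medians of −0.12 in astrocyte and microglial barcodes and −0.13 in endothelial barcodes. Mitochondrially encoded genes were higher in E4 for 9 of 13, against 57.8% of all genes. Their median was 0.09, and mt-Co1 stood at 0.19 (0.17 to 0.21). Glycolysis and lactate genes had a median of 0.02 over 25 genes, with Gapdh at −0.05 (−0.11 to 0.00), Ldhb at −0.30 (−0.43 to −0.17) and the glucose carrier Slc2a1 at 0.28 (0.06 to 0.51). The tricarboxylic acid cycle had a median of 0.05 over 22 genes. Ribosomal protein genes were lower for 58 of 83, against 42.2% of all genes, with a median of −0.03.

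**Figure D5:**
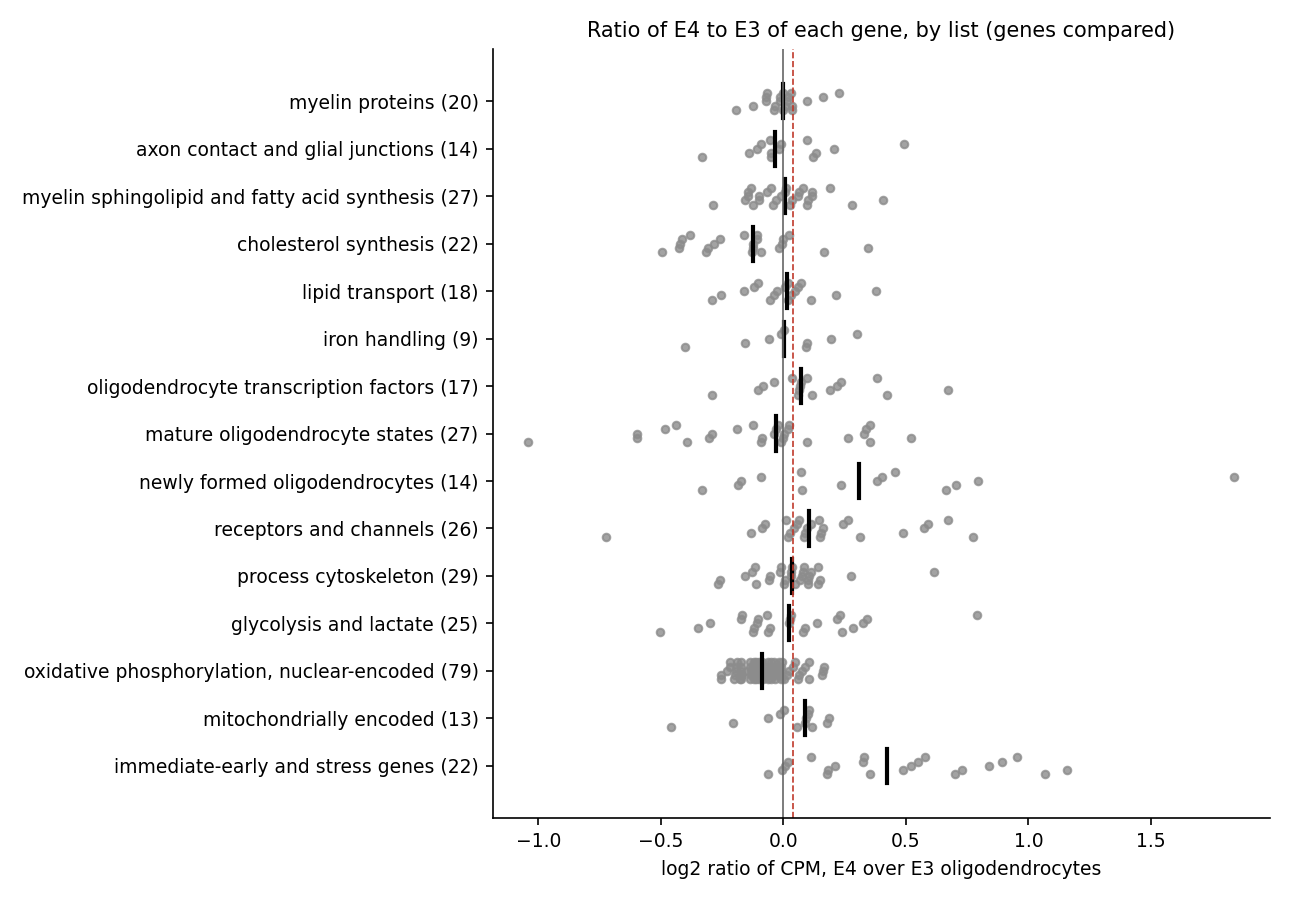
Log2 ratio of E4 over E3 in oligodendrocytes for each gene of 15 lists, with a black bar at the median of a list, a dashed red line at the median of all genes and a grey line at 0. Immediate-early and stress genes have a median of 0.42, cholesterol synthesis genes of −0.13, and the median of all genes is 0.04.

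The largest single ratios between the libraries were partly those of few cells or of all cell types. Marcks, a substrate of protein kinase C, had 877 UMIs in E4 and 346 in E3, a log2 ratio of 1.18 (1.0 to 1.37), in 100 E4 and 91 E3 cells, with 186 of the E4 UMIs in 1 cell. Its ratio was 0.48 after thinning and −0.84 in cells without UMIs of other cell types' genes. Sox11, a factor of immature neurons and glia, had 141 and 68 UMIs in 17 E4 and 13 E3 cells. Abca8a, a membrane transporter with close paralogs, had 472 and 246 UMIs (0.78, 0.56 to 1.01). Rora, a nuclear receptor, Zfhx4, a zinc finger homeobox factor, Sppl3, a Golgi protease, and Inpp5a, an inositol phosphatase, had log2 ratios from 0.77 to 0.86, of which that of Rora was 0.30 after thinning. Lowest in E4 was Lars2, which was listed here with the transcripts that overlap ribosomal RNA. It had 2043 UMIs in E4 and 4672 in E3, a log2 ratio of −1.35 (−1.43 to −1.28). Gm42418, whose model overlaps ribosomal RNA, stood at 9672 CPM in E4 and 21527 CPM in E3 (−1.15, −1.17 to −1.14). Their ratios were of like size in astrocyte barcodes, at −1.36 for Lars2 and −1.15 for Gm42418, and in microglial barcodes, at −1.30 and −1.21. Ttr, the transthyretin of choroid plexus, had a log2 ratio of −1.13 that rested on 1 E3 cell with 8423 of 13489 UMIs, and the ratio was −0.09 without the highest cell of each library, 1.41 at up to 15000 UMIs, 0.30 at up to 10% mitochondrially encoded UMIs and 0.51 without mixed barcodes. Hist1h4d, a histone, had −1.23 and is one of several near-identical copies, Ctps, which makes cytidine triphosphate, had −1.04 (−0.26 after thinning), Shisa8 −0.87, Crip1 −0.85 (0.32 in cells without UMIs of other cell types' genes) and Ecrg4 −0.84 (−0.32 without the highest cells). AY036118, another transcript that overlaps ribosomal RNA, had −0.84, and Hbb-bt, a haemoglobin chain, −1.12. Genes of other cell types also differed between the libraries. All 5 mural genes were lower in E4, against 42.2% of all genes, 4 of them by at least 1.5-fold. Their median was −1.27, but −0.31 after thinning and −0.16 without the highest cells. All 6 endothelial genes were higher, against 57.8% of all genes, with a median of 0.44, and of 0.21 after thinning. Of 10 choroid plexus and ependymal genes, Ttr included, 7 were higher in E4, 6 of them by at least 1.5-fold. The other 3 were all at least 1.5-fold lower. Over all genes 3.08% were at least 1.5-fold higher and 1.74% lower. The median of the 10 genes was 0.93, which was 0.97 without the highest cells and 0.76 after thinning. Their summed level, Ttr included, was lower in E4, at 1320 CPM against 2719 CPM in E3. The part of these genes in the other ratios was not tested.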

How the data were processed

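Brain cells of 1 E4 and 1 E3 library were measured with droplet-based 3′ single-cell RNA sequencing. The values are raw UMI counts per gene and barcode that the authors deposited after running Cell Ranger (version 6.1.1 for E4 and 6.1.2 for E3, per the file headers) on mm10, with no normalization. Which gene annotation they counted on is not given in the sources used here. Genotypes were taken from the sample labels.

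From these counts the cells were selected by the rule, without a doublet caller beyond its limits on other cell types. Counts were summed per library, scaled to CPM and compared as log2 ratios with exact Clopper-Pearson intervals that treat the 2 counts as a binomial split. Genes needed at least 50 UMIs in both libraries together. Where a group had no UMI, 3 counts served as its limit. For the split by Opalin, ratios were formed within each library without Opalin and then averaged. Thinning drew 1500 UMIs per cell once, with a fixed seed. Astrocyte, microglial and endothelial barcodes had at least 5 UMIs of Aqp4 and Gja1, at least 5 of C1q genes or at least 3 of Cldn5, with the other limits kept.

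Named genes were, of those with at least 200 UMIs, the 10 highest and 10 lowest ratios of each comparison with 1 sign in both libraries or both Opalin classes, and of each list up to 4 abundant members and members at least 1.5-fold apart. The members and lists were chosen with earlier results of these data known. The division of Opalin-0 cells by Klk6 and by Bmp4, Gpr17 and Tnr, and the alternatives that leave out highest cells, mixed barcodes or Opalin-0 cells with newly formed genes, were chosen after seeing the data. Python 3.11.15, numpy 2.4.6, scipy 1.17.1, pandas 2.3.3 and matplotlib 3.10.9 were used, and the ratios were tested on simulated data. Gene positions came from GENCODE vM21, which matched 32158 of 32285 gene IDs, and promoters from RefSeq. 2 genes are not reported here.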

Additional observations from a re-analysis of the deposited data

Results flagged for a closer look

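For 4 genes the log2 ratio of E4 over E3 lay on opposite sides of 0 in Opalin-positive and in Opalin-0 oligodendrocytes, with both intervals clear of 0. The difference between the 2 sets of cells was not tested, since there was 1 library per genotype. Ptgds, which encodes prostaglandin D synthase, stood at −0.0456 (−0.06 to −0.03) in Opalin-positive cells and at 1.30 (1.09 to 1.52) in Opalin-0 cells. Ank3, an ankyrin scaffold, stood at −0.13 in Opalin-positive and 0.36 in Opalin-0 cells, and Car2, a carbonic anhydrase, at −0.0304 and 0.112. Cdkn1a, an inhibitor of the cell cycle, stood at 1.25 (0.66 to 1.87) in Opalin-positive and −1.89 (−2.68 to −1.17) in Opalin-0 cells, on 111 UMIs in E4 and 112 in E3.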

How the results depend on the processing

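No paired analysis was possible because each genotype had 1 library. Over the alternatives tried on named genes, 505 values stayed within their counting interval, 64 moved beyond it and 10 changed sign. The sign changed for Marcks (−0.84) and Crip1 (0.32) when cells with any UMI of other cell types' genes were left out, for Ttr at up to 15000 UMIs (1.41), at up to 10% mitochondrially encoded UMIs (0.30) and without mixed barcodes (0.51), for Tnr (0.45), Bmp4 (0.64) and Gpr17 (1.51) without the Opalin-0 cells that carry these genes, by construction since Opalin-positive carriers were kept, and for Mgp with at least 10 marker UMIs (1.42) or no UMI of other cell types' genes (0.99). The share of oligodendrocytes was 3.44% in E4 and 3.65% in E3 without UMIs of other cell types' genes, 8.55% and 9.41% from 3000 UMIs, 8.13% in E4 at up to 10% mitochondrially encoded UMIs, 14.1% and 14.6% without mixed barcodes, which removes other cell types from the denominator, and 6.32% and 6.64% of all barcodes with 50 to 50000 UMIs. The Opalin-positive share was 81.9% and 78.3% with at least 2 UMIs, and 68.5% and 66.1% after thinning. Genes at least 1.5-fold higher in E4 numbered 174 after thinning. With a minimum of 20 UMIs, 641 were higher and 437 lower, and with no minimum 1734 and 1403. In the Opalin split, 582 genes were lower after thinning and 1939 with no minimum. Of genes past 1.5-fold, 64.0% were higher in E4, against 54.8% after centring on the median. In the Opalin split 44.9% were higher, against 61.7% without each gene's highest cell, 55.6% without Opalin-0 cells of the newly formed genes and 34.1% with no minimum. The 61.7% is partly set by group size, since the Opalin-0 groups are smaller and lose a larger share of their UMIs. After thinning, 5592 of 9500 genes still had at least 50 UMIs, so fewer genes could be counted by construction.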
